A study of Mus musculus with 2 samples.

Results

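The genes described here are 50 DNA repair and translesion polymerase genes, read in a mouse model of myelodysplastic syndrome (MDS) after decitabine. They are the genes of a list whose symbol appears as the gene name of a non-control probe. The list was chosen with earlier results of these data known. All 50 were found, on 69 probes, among 34843 gene names on the array. Each gene is represented by its probe with the highest mean log2 processed intensity over both arrays, so no measured difference entered the choice of probe. The genes fall into 8 groups: 9 Fanconi anaemia genes, 9 homologous recombination genes, 6 translesion and related polymerases, 3 mismatch repair genes, 8 base excision and single-strand break repair genes, 7 nucleotide excision repair genes, 4 damage signalling kinases and 4 genes of non-homologous end joining.

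Both arrays carried RNA from bone marrow LSK cells, a sorted fraction (Lineage-Sca-1+c-Kit+) that contains blood stem cells and early progenitors, of strain C57BL/6 and genotype Tet2KD/KD; Ezh2delta/delta. The cells were taken from secondary recipients of the transplanted MDS, 10 weeks after transplantation. The recipients received decitabine (DAC), a cytosine analogue that enters DNA and traps DNA methyltransferases on it, or phosphate-buffered saline (PBS). The source names read 7w DAC and 7w PBS. They do not say whether the 7 weeks are the length of treatment or the time since it, so "after DAC" below covers either. There was 1 array per treatment, hence no replicate, no test and no p-value, and the number of mice behind each array, or any pooling, is not given in the sources used here. Tet2 and Ezh2 are altered in the DAC and PBS cells alike, and the labels do not describe these alleles beyond their symbols, nor the host cells left in the recipients.

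DNA repair is divided among pathways that recognise different lesions. The Fanconi proteins find crosslinks between the strands and hand them to nucleases, to homologous recombination and to translesion polymerases, which copy past damaged bases. Mismatch repair corrects mispaired bases and small loops left by replication, base excision repair removes small base lesions, and nucleotide excision repair cuts out a short stretch of strand around a bulky lesion. End joining religates broken ends, and the kinases ATM and ATR signal that damage is present. Blood stem cells depend strongly on the Fanconi pathway, and its inherited loss causes bone marrow failure.

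Of the 50 genes, 45 were measured, meaning that the probe stood well above background after DAC and after PBS. Log2 signals are scaled so that 0 is the 75th percentile of an array's measured probes (processed intensity 813 for DAC and 618 for PBS), and differences are DAC minus PBS. At a 2-fold threshold 5 genes were higher (Polk, Ercc2, Xrcc5, Chek2 and Poli) and 5 were lower (Rev1, Fancd2, Fanci, Atm and Palb2), which is 11.1% of the measured genes on either side. Over all 18222 measured genes 10.0% were higher and 6.85% lower, 16.9% past 2-fold either way against 22.2% of the repair genes. The repair genes' shares were thus near the background, and fewer than 3 genes made up the gap on either side. With spike-in scaling, which rested on 1 of 10 spike-in probes, the split of the repair genes was 4 higher and 9 lower. Over all 18222 measured genes it was 1113 higher and 2357 lower under that scaling, so lower genes outnumbered higher ones there too. The median difference was −0.21 over the measured repair genes and 0.02 over all measured genes, and 26 of the 45 (57.8%) were negative against 48.6% of all. That median was 0.02 when each gene was read by its next brightest measured probe where it had one. In bulk RNA, fewer cells of a type and less RNA per cell cannot be told apart.

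**Figure D1:**
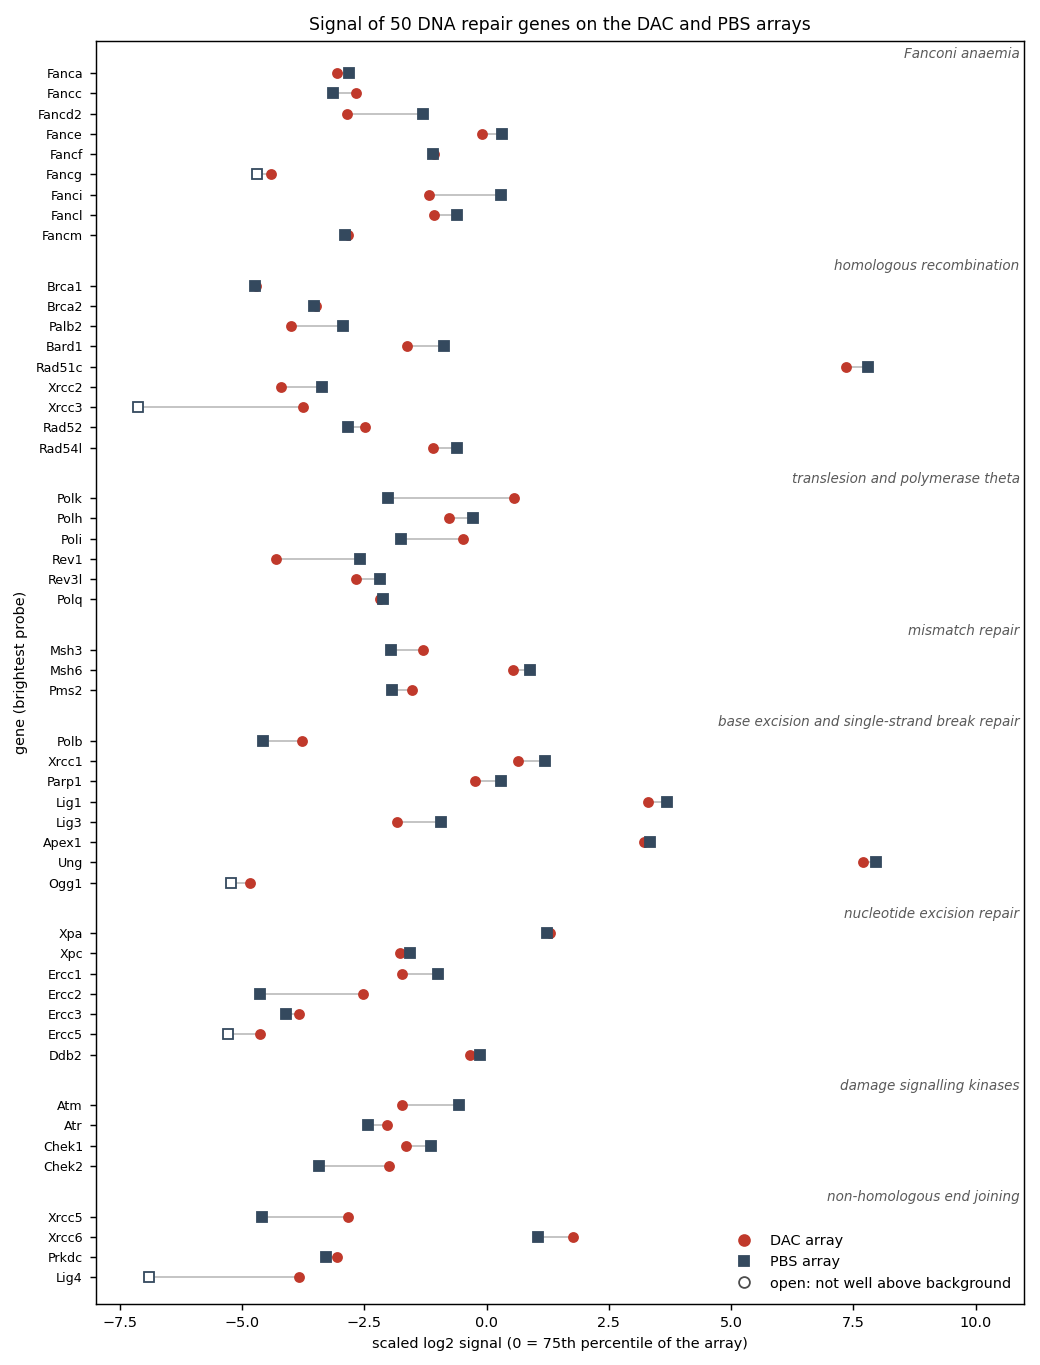
Scaled log2 signal of the 50 genes on the DAC array (red circles) and the PBS array (dark squares), by repair pathway, with 1 array each. On this scale 0 is the array's 75th percentile over probes well above background on both arrays. Open symbols were not well above background. Most pairs of symbols lie close together, and the 5 open squares are genes read after DAC alone.

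The arrays differed in brightness, and this bears on dim genes. The share of the 55680 probes that stood well above background was 56.8% for DAC and 48.5% for PBS. Probes that were printed repeatedly gave an SD of the log2 difference between single spots of 0.26 for genes in the lowest tertile of signal, 0.14 in the middle and 0.09 in the highest. The scanner software attaches an error to each spot, and the ± values below are these errors combined over both arrays. Both errors cover the array step only, not animals, sorting or labelling. Among all measured genes 22.8% of the lowest, 22.1% of the middle and 5.81% of the highest signal tertile were past 2-fold. Among the repair genes these were 5 of 15, 5 of 19 and 0 of 11. The median difference also varied with signal: over all measured genes it was 0.12 in the lowest, 0.12 in the middle and −0.13 in the highest tertile. Over the repair genes it was 0.22, −0.48 and −0.36.

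Markers of the sorted gate were present, with Kit at 5080 intensity units after DAC and 3550 after PBS. Of 7 LSK markers 6 were well above background on each array, Slamf1 on neither. Markers of other blood cells were also read: 4 of 5 B cell, 3 of 6 T and NK cell and 6 of 6 granulocyte markers on each array, 4 and 3 of 5 for monocytes and macrophages (Adgre1 matched no gene name), 5 and 4 of 6 erythroid, 4 and 3 of 4 megakaryocyte, and 2 and 3 of 6 endothelial and stromal markers on the DAC and PBS arrays. The genes Ms4a1 (B cell), Cd3g and Cd8a (T cell), Cdh5 (endothelial), and Col1a1 and Lepr (stromal) were above background on neither array. The summed scaled signal of the B cell markers was 6.05 after DAC and 3.63 after PBS, that of the T and NK cell markers 0.99 and 0.84, and that of the granulocyte markers 55.3 and 78.8. The sums were 6.24 and 6.00 for monocyte and macrophage, 2.04 and 2.79 for erythroid, 1.98 and 1.00 for megakaryocyte, and 0.67 and 0.29 for endothelial and stromal markers. Single genes carried some of these sums: of the granulocyte markers, Itgam made up most of the sum (log2 difference −0.55), while Ltf was higher (1.47) and S100a9 was at −0.01. Of the endothelial and stromal markers, Pecam1 was higher (2.95), Cxcl12 was lower (−1.42) and Col3a1 passed background after PBS alone. The part of such cells in the differences of repair genes was not tested. Genes of proliferating cells, with which many repair genes are co-expressed, had a median difference of −0.16 over 22 measured genes, 1 higher and 1 lower at 2-fold.

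**Figure D2:**
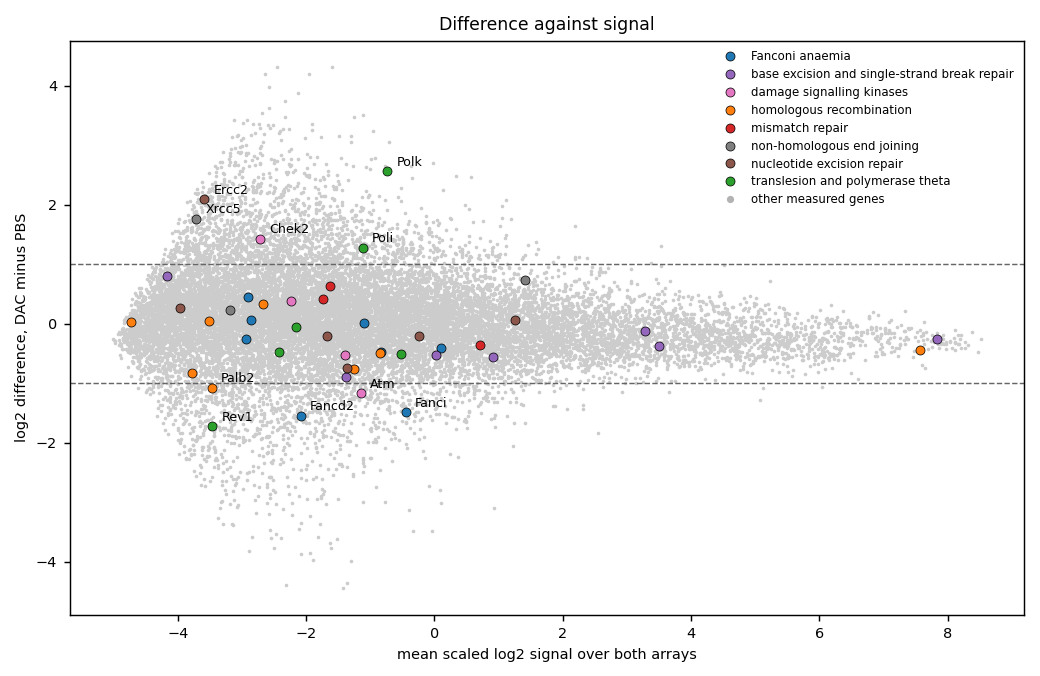
Log2 difference (DAC minus PBS) of 18222 measured genes against their mean scaled log2 signal, with the 45 repair genes coloured by pathway and 2-fold marked by dashed lines; each point is 1 gene on 1 array per treatment. The 10 repair genes past 2-fold lie at low and middle signal, inside the spread of the other genes.

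The Fanconi anaemia genes had 0 of 8 measured genes higher and 2 lower, their central pair, with a median difference of −0.33 beside 0.02 over all measured genes. Over all measured genes 10.0% were higher and 6.85% lower, and the counts of each group below are to be read beside these shares. In groups this small a share rests on few genes. Fancd2, whose product is ubiquitinated to mark a crosslink, had a scaled log2 signal of −2.85 after DAC and −1.31 after PBS, a difference of −1.55 ± 0.22 (2.92-fold lower). Its partner Fanci, which is ubiquitinated with it, had −1.18 after DAC and 0.30 after PBS, a difference of −1.48 ± 0.21 (2.80-fold lower). A second measured probe of Fanci, 40667 bases away on chromosome 7 (mm9), was also lower, by a smaller difference of −0.77. Both genes of this complex were therefore lower on the DAC array on every measured probe. Fancd2 had only 1 probe, so probes could be compared for Fanci alone. Under all 12 alternatives that gave a value, Fancd2 stayed between −1.86 and −1.14.

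The Fanconi core complex, which carries out the ubiquitination, lay within 2-fold. Fancl, its ubiquitin ligase subunit, had a difference of −0.48 ± 0.21, and its other probe one of −0.63. Fance, which binds the FANCD2 protein, had −0.11 after DAC and 0.31 after PBS, a difference of −0.41, against 0.23 on its other probe, so its probes disagreed in sign. Fanca (−0.25 ± 0.23), Fancc (0.45 ± 0.23), Fancf (−1.08 after DAC and −1.10 after PBS, a difference of 0.022 ± 0.21) and the DNA translocase gene Fancm (0.07 ± 0.23) completed the measured ones, with the last 2 of these changing sign between alternatives. Fancg could be read after DAC alone (intensity 38.0 after DAC and 23.7 after PBS). Its bound of 1.21-fold was its own log2 difference, 0.28 ± 0.42, and so was smaller than the error.

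Other genes of this pathway were read from a second list. Of 12 measured Fanconi and crosslink repair genes outside the 50, 0 were higher and 4 lower at 2-fold, with a median of −0.35. Over all measured genes 10.0% were higher and 6.85% lower, and whether this list departs from them was not tested. Ube2t, which encodes the ubiquitin-conjugating enzyme that acts on FANCD2 and FANCI, had the largest difference of these, −2.51, with an intensity of 27.1 after DAC and 118 after PBS. Its DAC intensity was close to the lowest called well above background on that array (22.5), which limits the size of this difference. Another 3 were picked out after their values were seen: Wdr48, the cofactor of the enzyme that removes that ubiquitin, at −1.52, the helicase gene Brip1 at −1.49, and the nuclease gene Mus81 at −1.02. Each of these rested on 1 probe.

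Homologous recombination genes lay mostly within 2-fold, with 0 of 8 measured genes higher, 1 lower and a median difference of −0.46. Palb2, which links BRCA1 to BRCA2, had −4.01 after DAC and −2.93 after PBS, a difference of −1.08 ± 0.27 (2.11-fold lower). It stood close to the threshold and came to −0.66 with normexp background correction. Brca2, a tumour suppressor gene that acts at the strand exchange step, had −3.49 after DAC and −3.53 after PBS, a difference of 0.04 ± 0.25. Brca1 had a difference of 0.03 ± 0.42 on a dim probe, with −4.72 after DAC and −4.75 after PBS, and changed sign between alternatives, as Brca2 did.

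The remaining genes of recombination that were measured on both arrays lay within 2-fold on their brightest probe. Rad51c had −0.44 ± 0.20, at 7.36 after DAC and 7.80 after PBS, without saturation. Xrcc2 had −0.83 ± 0.29, and passed 2-fold under 5 of 12 alternatives. Xrcc3 passed background after DAC alone, with an intensity of 60.3 after DAC and 4.41 after PBS, at least 2.26-fold higher. Bard1, the partner of BRCA1, had −0.76 on its brightest probe and 1.09 on its second, a disagreement larger than either spot error. A further Bard1 probe passed background after DAC alone, with an intensity of 35.0 after DAC and 8.15 after PBS. Rad54l, a motor protein gene of strand exchange, had −0.49 ± 0.21.

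Rad52, whose product anneals single strands, was printed repeatedly, which allowed its spots to be compared. Over 10 spots on the DAC array its intensity ran from 133 to 151 with a median of 144, and over 8 spots on the PBS array from 77.6 to 97.3 with a median of 84.4. After scaling, no spot of one array overlapped the other, and the mean difference was 0.33 ± 0.13 (SD over spots). A difference of this size could thus be separated from spot error but not from the choice of scaling, since it came to 0.022 with spike-in scaling. Of 14 measured recombination genes outside the 50, 1 was higher and 2 lower, with a median of −0.27. Rad51ap1, whose product promotes strand exchange, had a difference of −2.40, with an intensity of 38.8 after DAC and 156 after PBS.

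**Figure D3:**
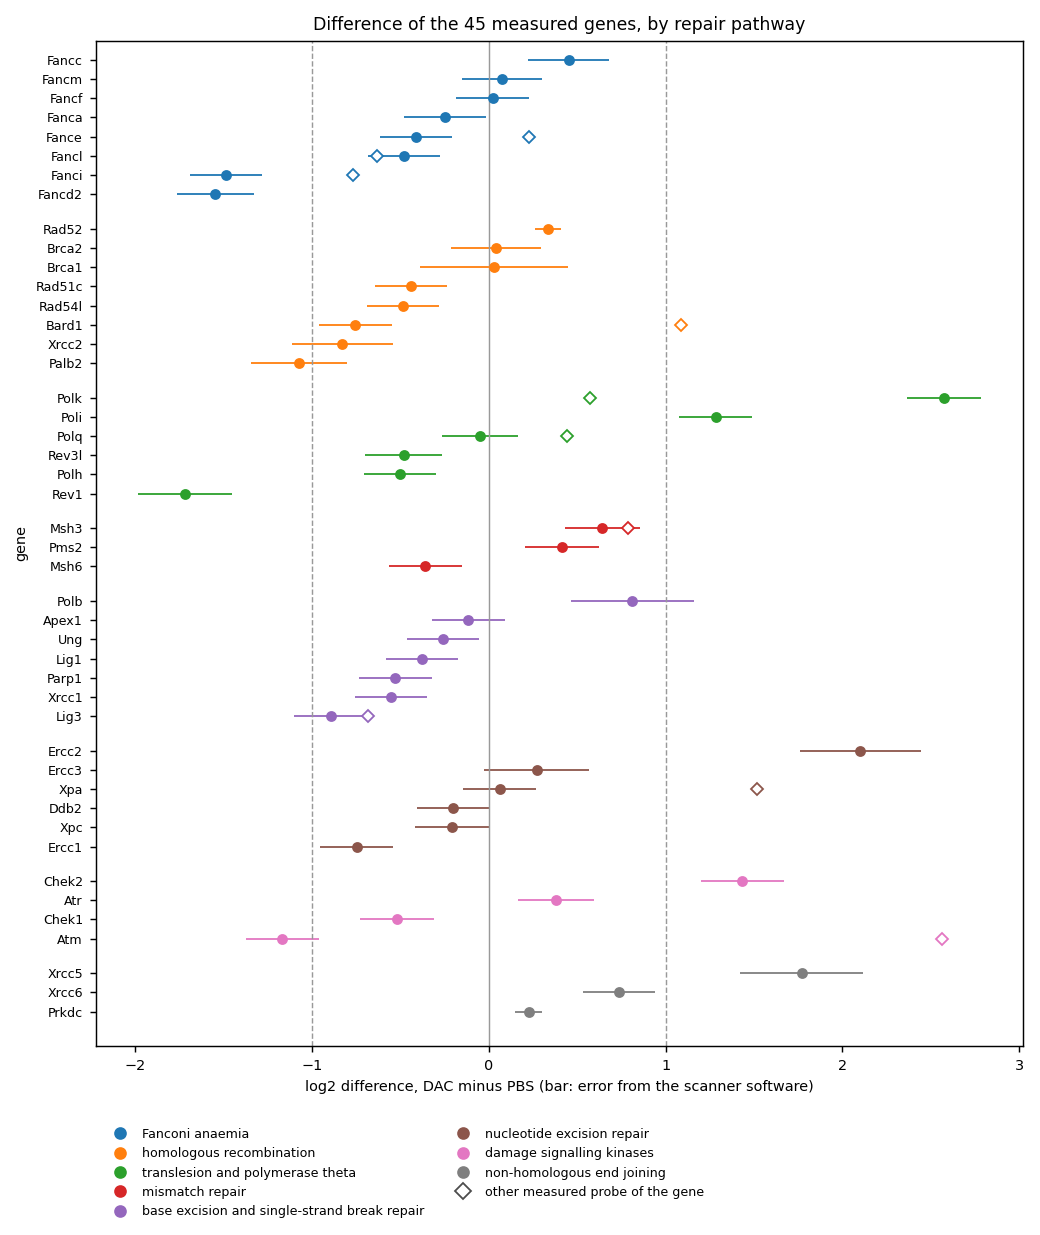
Log2 difference, DAC minus PBS, of the 45 measured repair genes by pathway; filled circles are the brightest probe with the scanner software's error, open diamonds another measured probe of the same gene, and dashed lines 2-fold. The translesion polymerases span the widest range, from −1.72 to 2.57, and the diamonds of Atm, Polk, Bard1 and Xpa lie far from their circles.

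Translesion polymerases went both ways, with 2 of 6 genes higher, 1 lower, 3 between and a median of −0.27. Polk, which encodes the Y-family polymerase kappa, had 0.55 after DAC and −2.02 after PBS, a difference of 2.57 ± 0.21 (5.94-fold higher). Its second measured probe had −3.84 after DAC and −4.41 after PBS, a difference of 0.57 ± 0.37. The probes lie 5182 bases apart on the minus strand of chromosome 13 (mm9, starting at 97256835 and 97251653), and they gave the same sign with sizes that differed by more than their errors. The first 30 bases of each are shown, since the size of the Polk difference turned on which was read.
Polk, brightest probe: aagtaaaaactcgtgcatctaccgttccgg
Polk, second probe: tgtgagcagatgcagttagaatcggccatg

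Poli, which encodes the Y-family polymerase iota, had −0.47 after DAC and −1.76 after PBS, a difference of 1.28 ± 0.21 (2.43-fold higher) on its single probe, and 0.97 with spike-in scaling. Rev1, the Y-family member that also holds the other translesion polymerases together, had −4.32 after DAC and −2.60 after PBS, a difference of −1.72 ± 0.27 (3.29-fold lower), which came to −1.01 with normexp background correction. Of this enzyme family, Polk and Poli were thus more than 2-fold higher and Rev1 more than 2-fold lower on the chosen probes. Polh, given below, was within 2-fold. The Rev1 probe spans 477 bases of chromosome 1 (mm9, 38110029 to 38110505, minus strand) with its 60 bases, so it crosses an intron and reads spliced RNA. It is given whole.
Rev1, probe: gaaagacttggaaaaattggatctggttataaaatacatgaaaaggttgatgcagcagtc

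The remaining polymerases lay within 2-fold. Polh, the Y-family polymerase that copies past ultraviolet lesions, had −0.78 after DAC and −0.28 after PBS, a difference of −0.50 ± 0.21. Rev3l, the catalytic subunit of polymerase zeta, had −2.67 after DAC and −2.19 after PBS, a difference of −0.48 ± 0.22. Polq, which encodes polymerase theta of alternative end joining, had −2.18 after DAC and −2.13 after PBS, a difference of −0.05 ± 0.21, and 0.44 on its second probe. Poli, Polh, Rev1 and Rev3l kept their sign under every alternative that gave a value, whereas Polq changed sign.

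Genes that act with these polymerases were read from the second list, where 2 of 15 measured genes were higher and 1 lower, with a median of −0.09. Shprh, a ligase gene for the ubiquitin chains on the sliding clamp PCNA, had a difference of 2.01, with an intensity of 149 after DAC and 28.1 after PBS. Its PBS intensity was close to the lowest called well above background on that array (20.3). Picked out after its values were seen, Hltf, its relative, had 1.07 on its brightest probe and −0.07 on the other. Rad18, which puts the first ubiquitin on PCNA and so recruits translesion polymerases, was likewise read by a pair of probes, at −1.25 and 0.64. The probes of Hltf and of Rad18 thus disagreed in sign.

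Mismatch repair genes, 3 in number, all lay within 2-fold, with a median of 0.42. Msh3, which recognises small loops, had −1.31 after DAC and −1.95 after PBS, a difference of 0.64 ± 0.21, and 0.79 on its second measured probe. A further Msh3 probe passed background after DAC alone. Msh6, which recognises single mismatches, had 0.53 after DAC and 0.89 after PBS, a difference of −0.36 ± 0.20. Pms2, the endonuclease subunit, had −1.53 after DAC and −1.94 after PBS, a difference of 0.42 ± 0.21. Outside the 50, 5 further mismatch repair genes had 0 higher and 1 lower, namely Msh4 (−1.33, picked out after its value was seen), a gene of meiotic recombination.

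Base excision and single-strand break repair showed small negative differences in 6 of 7 measured genes and none past 2-fold, with a median of −0.38. Lig3, the ligase that seals single-strand breaks with XRCC1, came nearest, at −1.82 after DAC and −0.93 after PBS, a difference of −0.89 ± 0.21, with −0.68 on its second probe. Its scaffold Xrcc1 had 0.64 after DAC and 1.19 after PBS, a difference of −0.55 ± 0.20. Parp1, the sensor of strand breaks, had −0.23 after DAC and 0.30 after PBS, a difference of −0.53 ± 0.20. Lig3, Xrcc1 and Parp1 thus had differences of one sign under every alternative run. Polb, of the same group, went the other way (0.81 ± 0.35), and 48.6% of all measured genes were negative. Of the 7, Xrcc1, Parp1, Lig1, Apex1 and Ung were in the highest signal tertile, where the median over all measured genes was −0.13. How much of the negative sign came with brightness was not tested.

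The enzymes that start and finish base excision were closer to 0. Lig1, the replicative ligase, had 3.31 after DAC and 3.69 after PBS, a difference of −0.38 ± 0.20. Ung, the uracil glycosylase gene, had 7.70 after DAC and 7.96 after PBS, a difference of −0.26 ± 0.20, and Apex1, which cuts abasic sites, had 3.23 after DAC and 3.34 after PBS, a difference of −0.11 ± 0.20. Ung and Apex1 turned positive with loess normalization, at 0.07 and 0.06. Polb, the gap-filling polymerase, was the positive one of the 7, with −3.77 after DAC and −4.58 after PBS, a difference of 0.81 ± 0.35, which came to 0.09 without background subtraction. Ogg1, the glycosylase for oxidised guanine, passed background after DAC alone, with an intensity of 28.2 after DAC and 16.5 after PBS. Its bound of 1.06-fold (log2 0.08) was smaller than the scanner error of its difference (0.55).

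Nucleotide excision repair had 1 of 6 measured genes higher and 0 lower, with a median of −0.07. Ercc2, a helicase subunit of the transcription factor TFIIH, had −2.54 after DAC and −4.64 after PBS, a difference of 2.10 ± 0.34 (4.29-fold higher). Its PBS signal was close to the lowest called well above background (−4.93), and the difference came to 0.81 with normexp background correction. Its sister helicase gene Ercc3 had a difference of 0.27 ± 0.30 and changed sign between alternatives. Ercc1, a nuclease subunit, had −1.73 after DAC and −0.99 after PBS, a difference of −0.75 ± 0.21.

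The damage recognition genes Xpc and Ddb2 had differences of −0.21 ± 0.21 and −0.20 ± 0.20. Xpa, which verifies the lesion, had 1.29 after DAC and 1.23 after PBS on its brightest probe, a difference of 0.06 ± 0.20. Its second probe gave a difference of 1.52. Ercc5 passed background after DAC alone, with an intensity of 32.6 after DAC and 15.9 after PBS. Its bound of 1.22-fold (log2 0.29) was smaller than the scanner error of its difference (0.53). Ddb2 and Polh, known as targets of p53 in human cells, and Polk, known as one in mouse cells, therefore did not share a direction. The Ddb2 difference was no larger than its error. Of 18 measured p53 targets outside the 50, 5 were higher (27.8%) and 1 lower (5.56%), with a median of 0.51. Over all measured genes 10.0% were higher and 6.85% lower, with a median of 0.02. The part of p53 in these differences was not tested.

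Among the damage signalling kinases 1 of 4 was higher and 1 lower, and the median was −0.07. Chek2, the effector kinase of ATM, had an intensity of 204 after DAC and 57.2 after PBS, a difference of 1.43 ± 0.23 (2.70-fold higher). It came to 0.77 without background subtraction. Atr, the kinase of stalled replication forks, had −2.05 after DAC and −2.43 after PBS, a difference of 0.38 ± 0.21. Its effector Chek1 had −1.65 after DAC and −1.14 after PBS, a difference of −0.52 ± 0.21.

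Atm, the kinase of double-strand breaks, was read by a pair of probes that contradict each other. The brightest probe, printed once, had −1.73 after DAC and −0.56 after PBS, a difference of −1.17 ± 0.21 (2.25-fold lower), or −0.99 with normexp. The second probe was printed 10 times. Its intensity ran from 155 to 198 with a median of 183 on the DAC array, and from 15.7 to 40.6 with a median of 22.8 on the PBS array, where 6 of 10 spots were well above background. No spot of one array overlapped the other, and the mean difference was 2.56 ± 0.44 (SD over spots). Its mean PBS signal (−4.74) was close to the lowest called well above background on that array (−4.93), which limits the size of this difference. The better replicated probe of Atm thus stood above 2-fold and the brighter one below it, so the count of lower genes includes Atm by the rule of brightness alone. The probes start 10296 bases apart on the minus strand of chromosome 9 (mm9, 53245871 and 53256167), and their first 30 bases are shown because the sign of Atm turned on them.
Atm, brightest probe: ttgaaaggtgaaaaagactgagttagaaaa
Atm, second probe: gaagacggtgcacatagaagatacaggcca

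**Figure D4:**
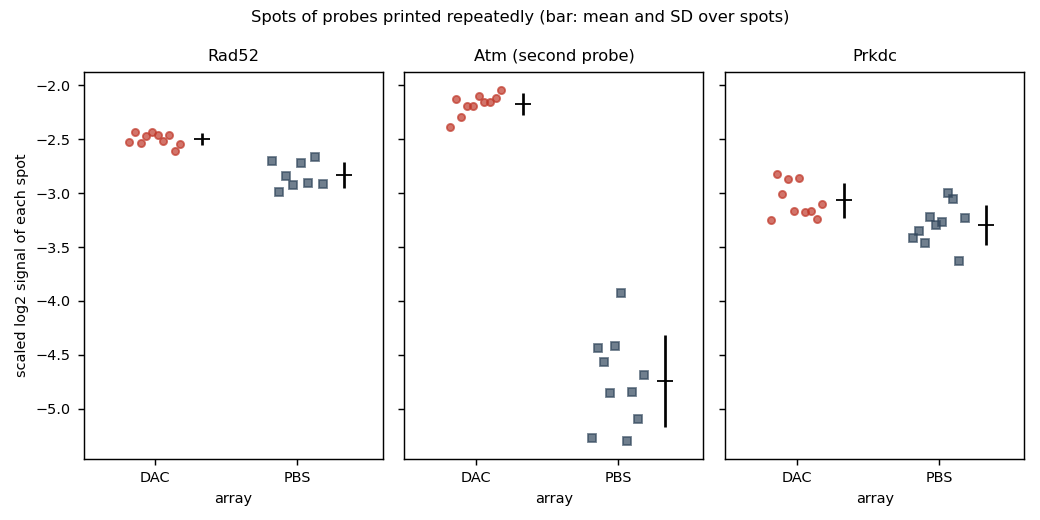
Scaled log2 signal of each spot on the DAC array (circles) and the PBS array (squares) for the 3 repair gene probes printed repeatedly, with the mean and SD over spots as bars. Spots of Rad52 and of the second Atm probe do not overlap between the arrays, and those of Prkdc do.

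Non-homologous end joining genes all had positive differences as reported, though that of Prkdc depended on the processing, with 1 of 3 measured genes higher, 0 lower and a median of 0.73. Xrcc5, which encodes the Ku80 subunit of the clamp that binds broken ends, had −2.83 after DAC and −4.60 after PBS, a difference of 1.77 ± 0.35 (3.41-fold higher). It came to 0.55 with normexp background correction. Xrcc6, the gene of its partner Ku70, had 1.78 after DAC and 1.04 after PBS, a difference of 0.73 ± 0.20. Lig4, the ligase of the pathway, passed background after DAC alone, with an intensity of 56.8 after DAC and 5.12 after PBS, at least 2.13-fold higher.

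Prkdc, the catalytic subunit of the DNA-dependent kinase, was printed 10 times. Its intensity ran from 85.3 to 115 with a median of 92.7 on the DAC array, and from 50.1 to 77.3 with a median of 63.5 on the PBS array. After scaling, the spots overlapped and the mean difference was 0.22 ± 0.25 (SD over spots). The scanner error of this mean was 0.08, but the sign of Prkdc turned under 5 of 12 alternatives, down to −0.10 with quantile normalization. Of 3 measured end joining genes outside the 50, 0 were higher and 0 lower, with a median of −0.38. By sign 1 of them was positive and 2 were negative. The Xrcc5 probe spans 307 bases of chromosome 1 (mm9, 72430014 to 72430320, plus strand), hence crosses an intron, and is shown as the probe of the gene with the largest difference among the 3 measured on both arrays.
Xrcc5, probe: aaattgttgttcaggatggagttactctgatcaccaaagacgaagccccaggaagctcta

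In all, 5 of the 50 genes (10.0%) passed background after DAC alone and 0 after PBS alone, against 9.53% and 2.96% of all gene names. Bounds of at least 2-fold were reached by 2 of these 5 genes, Xrcc3 and Lig4. Over the whole array they were reached by 1281 of the 3322 gene names read after DAC alone, a similar share. Those 1281 were 3.68% of all gene names. No probe of the 50 genes shared its sequence with a probe of another gene name. Among the 10 genes with more than 1 measured probe, the next brightest had the same sign in 6. For all genes with such a pair this share was 61.4% of 4649. The median gap between the differences of such probes was 0.68 for the repair genes and 0.49 for all genes.

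Promoters were compared to see what the genes share besides function. RefSeq promoter sequences (GRCm38.p6) were matched for 41 of the 50 genes, on 47 start sites, and the 250 bases before each start were read. In these, 78.7% had a CpG observed over expected ratio of at least 0.6, against 60.7% of 10685 promoters of genes measured on both arrays and 34.0% of all 32851 promoters in the table. CpG-rich promoters, usually unmethylated, were thus common among the repair genes. An E2F motif (TTTCGCGC, TTTGGCGC, TTTCCCGC or TTTGCCGC, on either strand) was found in 6 of 47 (12.8%), against 3.19% of promoters of measured genes and 1.86% of all. A CCAAT box (CCAAT on either strand) was found in 42.6%, against 35.3% and 33.8%. The motifs do not contain one another, although E2F matches on opposite strands can overlap.

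The promoters of genes past 2-fold with 1 sign on all measured probes are shown for those in the table, with E2F and CCAAT matches in capitals. They show how base composition varied among these genes: Rev1 had 42 CpG in 250 bases, and the second listed start of Polk 19, its first 3, Palb2 20, Fanci 13, Ercc2 21, Chek2 17 and Xrcc5 5. A match is a description of letters and not a bound site.
Polk, chr13:96519188-96519437, minus strand: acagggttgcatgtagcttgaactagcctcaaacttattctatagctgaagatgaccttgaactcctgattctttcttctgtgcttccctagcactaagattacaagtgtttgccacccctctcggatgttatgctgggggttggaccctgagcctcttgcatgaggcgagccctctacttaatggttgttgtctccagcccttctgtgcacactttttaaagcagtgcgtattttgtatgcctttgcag
Polk, chr13:96542580-96542829, minus strand: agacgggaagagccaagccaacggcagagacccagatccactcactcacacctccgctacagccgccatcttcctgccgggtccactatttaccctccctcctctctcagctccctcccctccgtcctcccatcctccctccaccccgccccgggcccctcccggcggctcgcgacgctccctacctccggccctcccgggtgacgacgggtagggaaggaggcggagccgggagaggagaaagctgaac
Ercc2, chr7:19381767-19382016, plus strand: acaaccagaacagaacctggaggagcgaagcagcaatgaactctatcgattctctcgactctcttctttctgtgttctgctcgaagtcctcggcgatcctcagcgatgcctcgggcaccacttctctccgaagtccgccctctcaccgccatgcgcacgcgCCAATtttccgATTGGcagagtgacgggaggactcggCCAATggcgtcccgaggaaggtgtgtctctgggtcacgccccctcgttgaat
Xrcc5, chr1:72307171-72307420, plus strand: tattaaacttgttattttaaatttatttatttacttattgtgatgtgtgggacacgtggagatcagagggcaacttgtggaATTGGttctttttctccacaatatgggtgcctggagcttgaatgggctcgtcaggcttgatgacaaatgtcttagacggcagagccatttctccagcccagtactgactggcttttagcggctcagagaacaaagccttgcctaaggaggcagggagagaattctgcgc
Chek2, chr5:110839733-110839982, plus strand: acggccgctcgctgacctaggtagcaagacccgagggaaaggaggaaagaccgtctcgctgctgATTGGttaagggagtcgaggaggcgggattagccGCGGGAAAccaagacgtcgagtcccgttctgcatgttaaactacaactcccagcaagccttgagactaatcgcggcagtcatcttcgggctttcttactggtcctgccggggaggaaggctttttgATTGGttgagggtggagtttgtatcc
Rev1, chr1:38129667-38129916, minus strand: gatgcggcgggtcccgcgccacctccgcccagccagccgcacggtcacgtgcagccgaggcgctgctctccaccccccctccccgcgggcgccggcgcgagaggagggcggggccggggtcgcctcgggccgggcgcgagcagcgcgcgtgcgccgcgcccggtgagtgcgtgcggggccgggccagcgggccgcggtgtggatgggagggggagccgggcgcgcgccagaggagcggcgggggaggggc
Fanci, chr7:79392088-79392337, plus strand: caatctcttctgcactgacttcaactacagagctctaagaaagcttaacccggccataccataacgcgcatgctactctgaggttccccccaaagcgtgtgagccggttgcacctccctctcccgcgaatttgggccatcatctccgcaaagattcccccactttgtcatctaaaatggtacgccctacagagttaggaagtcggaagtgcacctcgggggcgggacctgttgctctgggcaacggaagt
Palb2, chr7:122132947-122133196, minus strand: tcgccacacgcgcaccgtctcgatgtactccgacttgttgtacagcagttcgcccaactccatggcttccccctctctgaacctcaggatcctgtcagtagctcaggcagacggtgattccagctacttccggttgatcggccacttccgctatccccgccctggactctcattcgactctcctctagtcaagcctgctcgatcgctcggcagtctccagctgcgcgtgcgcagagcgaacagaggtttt

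Of the genes shown, Chek2 held 1 E2F match and 2 CCAAT matches, Ercc2 held 3 CCAAT matches and Xrcc5 held 1. Neither motif was found in the windows of Polk, Rev1, Fanci and Palb2. Among the higher genes the CpG ratio was 1.01 for Ercc2, 0.90 for Chek2, 0.41 for Xrcc5, and 0.71 and 0.22 at the starts of Polk. Among the lower genes it was 0.98 for Rev1, 0.97 for Palb2 and 0.72 for Fanci, so the ranges overlapped.

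**Figure D5:**
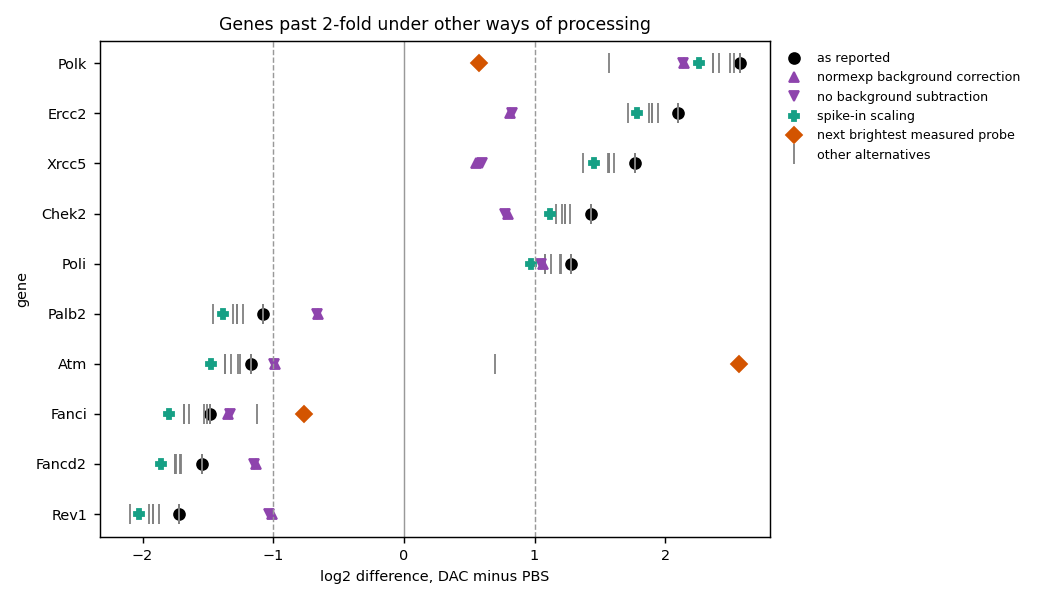
Log2 difference, DAC minus PBS, of the 10 repair genes past 2-fold as reported (black circles) and under 13 other ways of processing, with 2-fold marked by dashed lines. Under the named alternatives 9 genes keep their side of 0, while Atm changes sign when its second probe is read, and Xrcc5, Ercc2, Chek2, Palb2 and the brightest Atm probe move inside 2-fold under both other treatments of background.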

How the data were processed

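Gene expression was measured in 2 samples of LSK cells, 1 array for DAC and 1 for PBS, on 1 slide. Per the labels' protocols, total RNA was labelled with Cy3 after addition of spike-in controls. Per the file headers, the authors' arrays were read with Agilent Feature Extraction 10.7.3.1, which gave the deposited processed intensity (background-subtracted and detrended, a surrogate for dim spots), its error, and calls per spot, with probe positions on mm9. The authors' deposited series matrix holds log2 values with a median of 0 in each column. Its column difference followed the processed intensity with slope 1.00 and offset −0.60, so scale and direction were settled and the baseline of each probe was not.

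Processed intensities were put on the log2 scale, outlying spots left out, and spots of a probe averaged (well above background if at least 50% of spots were). Each array was scaled to its 75th percentile over the 25404 probes above background on both (45.6%). Genes were named as in the files. With 1 array per group differences were described at 2-fold. A gene on 1 array only received a lower bound, its signal against the higher of its own and the lowest signal above background on the other array. Such a bound takes no account of spot error. Alternatives used limma 3.58.1 in R 4.3.3 (normexp with offset 50, quantile, loess with span 0.3), and the steps were tested on simulated data. Values on both arrays were given for genes past 2-fold, on 1 array only and for all translesion polymerases, and in each other group for the brightest gene and that with the smallest difference, with a few more to show the group's range. Genes outside the 50 were named past 4-fold unless stated. Some genes of the lists are not reported here. The members and lists were chosen with earlier results of these data known. The number of arrays limits the precision.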

Additional observations from a re-analysis of the deposited data

How the results depend on the processing

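No paired analysis was possible because each group has 1 array. Counts of genes past 2-fold moved most with the treatment of dim signals. For all measured genes there were 724 higher and 754 lower with normexp, 720 and 737 without background subtraction, 5378 and 3045 with no filter, 3675 and 2200 with the positive and significant call, 481 and 418 in genes not below the median signal, and 1113 and 2357 with spike-in scaling, which rested on 1 of 10 spike-in probes. A 1.5-fold threshold gave 3617 and 2930, and 4-fold 340 and 235. For the repair genes there were 2 higher and 3 lower with normexp, the same counts without background subtraction, 2 and 2 in genes not below the median signal, 8 and 9 at 1.5-fold, 2 and 0 at 4-fold, 9 lower with spike-in scaling and 3 lower with the next brightest probe.

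The median of the repair genes was −0.41 with scaling over all probes and with the series matrix, −0.37 with median centring, −0.52 with spike-in scaling, −0.44 in genes not below the median signal and 0.022 with the next brightest probe. The median of all genes shifted with it by −0.20, −0.20, −0.16 and −0.31 under the first 4 of these, and by −0.11 with quantile normalization. Atm reversed to 2.56 with its next brightest probe and to 0.70 with the mean over its probes. The other 9 genes past 2-fold kept their sign under every alternative that gave a value, and 12 of the 35 within 2-fold changed sign under at least 1. Why the counts moved was not tested beyond these settings. Signals near background limit Ercc2, Xrcc5, Polb, Brca1, the second Atm probe and the 5 genes seen on 1 array only.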

Other observations

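Glycosylases of base excision repair that act on oxidised or deaminated bases, outside the 50 genes, stood on both sides of 2-fold. Neil1 had an intensity of 64.0 after DAC and 217 after PBS, a log2 difference of −2.16, and 0.27 on its second measured probe. Neil2 had 25.6 after DAC, close to the lowest called well above background (22.5), and 58.7 after PBS, a difference of −1.59 on 1 probe. Mbd4, a glycosylase for thymine opposite guanine at CpG sites, had 257 after DAC and 72.0 after PBS, a difference of 1.44. Tdg, which acts on the same mismatch, had 1.21 on its brightest probe and −0.74 and 0.37 on the others. In this list 2 of 16 measured genes were higher and 3 lower, with a median of 0.26. Apart from Neil1, these genes were picked out after their values were seen.

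Genes around Ercc2 in nucleotide excision repair also went both ways, with 3 of 15 measured genes outside the 50 higher, 2 lower and a median of −0.31. The TFIIH subunit genes Gtf2h4 and Gtf2h2 had differences of 1.41 and 1.17, and Gtf2h2 had 2.16 on its second probe. Gtf2h3, of the same complex, had −1.41, and Ercc4, whose product pairs with that of Ercc1, had −1.08. These genes too were picked out after their values were seen. Of 16 measured damage signalling genes outside the 50, 1 was higher (Cdc25a, 1.33) and 0 lower, with a median of 0.40.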
